A study of Mus musculus with 12 samples.

Results

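The cMyc-2 viewpoint is a restriction fragment between Myc and Pvt1 on mouse chromosome 15, and the local pairs described here are the contacts it formed within 1 Mb. A pair consists of 2 fragments (reporters) found with the viewpoint in the same DNA molecule, and each count is taken as a 3-way contact. Directly neighbouring fragments may instead have come as 1 uncut stretch, which was not told apart here. Members were all pairs whose 2 reporters both had their midpoint within 1 Mb of the start of the capture oligo. In naive cells 8985 of 17549 cMyc-2 pairs met this rule, with 17125 of 27975 counts. In primed cells 8195 of 16628 pairs did, with 14410 of 24989 counts. The whole series lists 159167 pairs and 241872 counts over 23 viewpoints.

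All samples were J1 mouse embryonic stem cells, a line that can be held in 2 states of pluripotency. Naive cells were grown in serum-free medium with the kinase inhibitor mix 2i and leukemia inhibitory factor (LIF), and primed cells were obtained from them over a week in Fgf2 and Activin A. The series holds 12 Tri-C samples, with 3 biological replicates for each state and each of 2 oligo pools, and cMyc-2 belonged to pool 1. The tables carry no replicate and were taken as 1 pooled table per state, so no difference below has a replicate check and no test was made. Intervals are 95% intervals that cover counting error only and treat counts as independent. A difference between libraries and a difference between cell states cannot be told apart.

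Myc encodes a transcription factor that drives growth and proliferation, and it is part of the network that sustains embryonic stem cells. Pvt1 is the long non-coding RNA gene that follows it, carries enhancers in its body and is frequently co-amplified with Myc in tumours. Chromatin contacts fall off with genomic distance and are held within domains, so a fragment between both genes can meet either of them. Tri-C cuts fixed chromatin with DpnII at GATC, ligates fragments that lay close together, captures molecules that hold a chosen fragment and reads the others in them.

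The oligos that define the 2 Myc viewpoints are shown because their positions set every distance below. Both are 100 bases long and hold 0 GATC sites.

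cMyc-2: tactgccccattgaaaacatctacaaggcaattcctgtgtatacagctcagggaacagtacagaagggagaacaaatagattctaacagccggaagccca
cMyc: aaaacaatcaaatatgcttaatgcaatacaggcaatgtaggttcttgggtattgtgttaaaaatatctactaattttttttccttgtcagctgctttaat

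The cMyc-2 oligo lies at chr15:62010774-62010873 (mm10), in no annotated gene, 25.4 kb downstream of the start of Myc and 27.2 kb upstream of the start of Pvt1. The cMyc oligo, of pool 2, lies at chr15:61979284-61979383, 31.5 kb away and 6.06 kb upstream of the Myc start. Both genes run in the direction of rising coordinates, so upstream below means the Myc side of the cMyc-2 oligo and downstream the Pvt1 side. The cMyc-2 tables list no reporter over 1581 bases around the oligo.

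The depth allowed shares of single 10-kb bins to be compared, but not single pairs. Of the member pairs, 73.0% in naive and 74.3% in primed cells were seen once. The 2 states shared 1583 of the 15597 pairs seen in either. Directly neighbouring fragments made up 36.6% of the naive and 35.8% of the primed counts. Outside the 2 bins that are left out below they made up 44.1% and 41.7%. The limit of 1 Mb cut through a thin tail. Between 900 and 1000 kb lay 322 naive and 268 primed pairs, and between 1000 and 1100 kb lay 175 and 243.

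Contacts of cMyc-2 were more local in naive cells, and the excess was at short range. Both reporters lay within 1 Mb in 61.2% of naive counts (60.6 to 61.8%) and in 57.7% of primed counts (57.0 to 58.3%), a ratio of 1.06 (1.04 to 1.09). Within 200 kb the shares were 44.6% and 32.9%, a ratio of 1.35 (1.32 to 1.39). Within 2 Mb they were 68.6% and 68.5%, with a ratio of 1.00 (0.982 to 1.02), so the 2 states differed in how contacts were distributed inside that distance. All 6 other viewpoints with at least 1000 local counts in each state outside their own left-out bins also had the higher local share in naive cells, with ratios between 1.06 and 1.18.

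The distance of the farther reporter placed this difference. It lay 20 to 50 kb from the oligo in 17.0% of naive and 9.67% of primed member counts, a ratio of 1.76 (1.65 to 1.88), and this is the range that holds both gene starts. At 200 to 500 kb the shares were 15.8% and 24.4%, a ratio of 0.649 (0.617 to 0.683). At 500 to 1000 kb they were 11.4% and 18.6%, a ratio of 0.611 (0.576 to 0.648). Below 10 kb the ratio was 0.990 (0.935 to 1.05).

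For the results that follow, the 2 bins of 10 kb around the oligo (chr15:62000001-62020000) were left out, as fragments next to a viewpoint are always in its reach. At least 1 reporter lay in them in 36.7% of naive and 36.3% of primed counts. For the bin with the oligo alone the shares were 15.3% and 18.5%, a ratio of 0.828 (0.784 to 0.874). The remaining 10832 naive and 9174 primed counts are the denominators of all shares unless another is named, and a count touches a window if at least 1 of its reporters has its midpoint there.

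The profile along the chromosome fell steeply upstream of Myc and slowly across Pvt1. In naive cells the bin centred 25.8 kb upstream, which holds nearly all of Myc, was touched by 9.67% of counts, the next one by 2.96% and the one centred 45.8 kb upstream by 0.979%. The same bins were touched by 3.61%, 1.46% and 0.970% of primed counts. Downstream the bin centred at 44.2 kb still had 5.05% in naive and 3.28% in primed cells. The naive over primed ratio was 2.68 (2.37 to 3.04) in the bin with Myc, 2.03 (1.65 to 2.5) in the next and 1.01 (0.754 to 1.35) in the one at 45.8 kb.

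**Figure D1:**
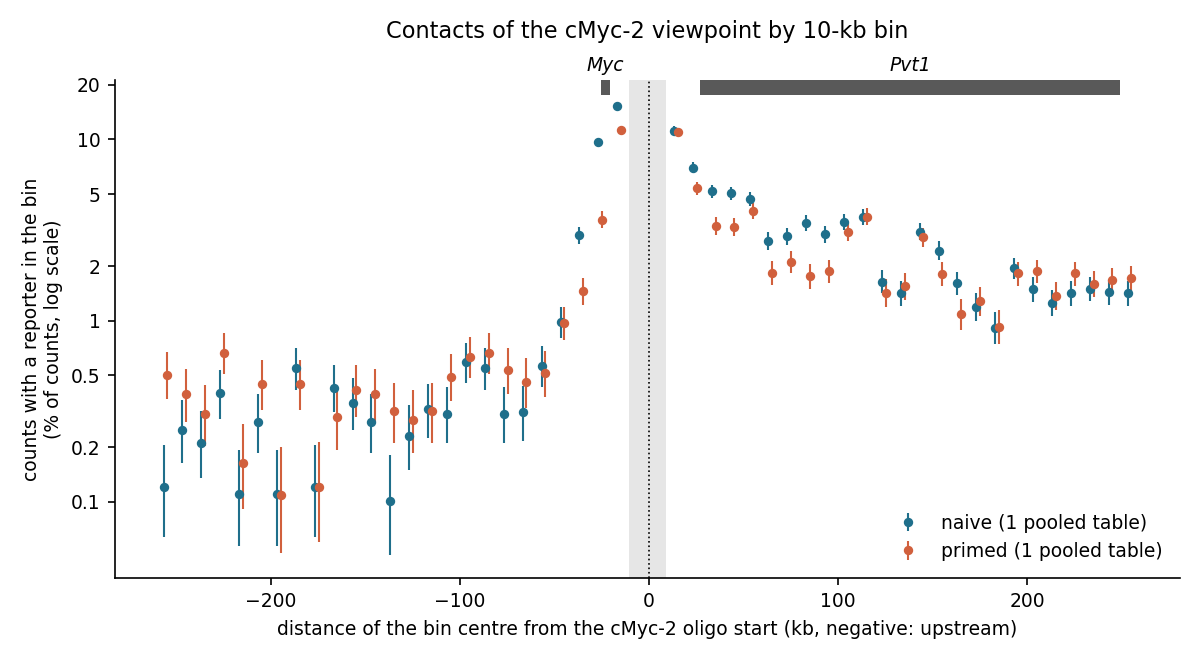
Share of counts that touch each 10-kb bin (percent, log scale) against the distance of the bin centre from the cMyc-2 oligo start (kb), for the pooled naive (blue) and primed (orange) tables. Bars are exact 95% binomial intervals, the grey band marks the 2 left-out bins and the black bars mark Myc and Pvt1. The bin with Myc sits at 9.67% in naive and 3.61% in primed cells, and both states meet in the bin at 45.8 kb upstream, at 0.979% and 0.970%.

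Pvt1 was not touched evenly. In both states the bin centred at 114 kb downstream stood above its right neighbour, with 3.74% against 1.64% in naive cells and 3.75% against 1.43% in primed cells. The bin at 144 kb stood above its left neighbour, with 3.10% against 1.42% in naive and 2.89% against 1.55% in primed cells. The bin at 194 kb had 1.95% and 1.82%, against 0.914% and 0.927% in the bin before it. The bin after it had 1.49% in naive and 1.87% in primed cells, so it was a local maximum in naive cells alone. These 3 bins lie in the body of Pvt1, and their naive over primed ratios of 0.997, 1.07 and 1.07 have intervals that include 1.

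The most touched bin of both states was the one between Myc and the left-out bins (chr15:61990001-62000000), with 15.3% of naive and 11.3% of primed counts. A run of short fragments 11.4 to 11.6 kb upstream of the oligo, in no gene, led it. Its fragment of 137 bases at chr15:61999163-61999299 was touched by 216 naive and 136 primed counts, more than any other fragment outside the left-out bins. Among the 5 most touched fragments of the naive table, 2 lie in Myc (130 and 134 counts, against 23 and 43 in primed cells), and none of the primed table does.

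Myc was the window with the larger difference of both gene starts. Within 5 kb of its start it was touched by 1066 naive counts (9.84%, 9.29 to 10.4%) and by 345 primed counts (3.76%, 3.38 to 4.17%). The naive over primed ratio was 2.62 (2.32 to 2.96). Counts came from 562 different fragment pairs in naive and 199 in primed cells, and counting each pair once gave 2.64. Without neighbouring fragments the ratio was 2.73 (2.35 to 3.18). The ratio depends on the denominator, since primed cells had more counts far away: among counts with both reporters within 200 kb it was 1.88 (1.64 to 2.15).

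The ratio was above 1 in each of the 27 fragments of the window, from 1.06 to 8.00 with a median of 2.58, and its interval lay above 1 in 17. Of the 16 fragments with their midpoint in the gene 15 had such an interval, and of the 11 upstream of the start 2 did, where each fragment had at most 43 counts in the 2 states together. The same share was not taken for fragments elsewhere. A count with both reporters in the window can touch 2 of its fragments, so the fragments are not separate observations. The part upstream of the start was touched by 172 naive and 73 primed counts, a ratio of 2.00 (1.51 to 2.66). The gene body within the window was touched by 908 and 277, a ratio of 2.78 (2.42 to 3.19). The highest ratio, 8.00 (4.02 to 18.1), belonged to a fragment of 51 bases centred 1.36 kb into the gene with 85 naive and 9 primed counts.

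The start of Pvt1 differed less. Its window was touched by 716 naive counts (6.61%, 6.15 to 7.09%) and by 413 primed counts (4.50%, 4.09 to 4.95%), a ratio of 1.47 (1.30 to 1.66). Among counts within 200 kb this ratio was 1.17 (1.03 to 1.35), with each pair counted once it was 1.76 (1.49 to 2.09), and without neighbouring fragments it was 1.61 (1.39 to 1.89). Set against each other, which removes the denominator, the Myc window had 1.49 times the counts of the Pvt1 window in naive cells and 0.835 times in primed cells. The ratio between the states was 1.78 (1.5 to 2.12).

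The stretches around the 2 genes showed where the primed counts lay instead. The rest of Pvt1 was touched by 45.0% of naive and 37.4% of primed counts, a ratio of 1.20 (1.15 to 1.26). The 751 kb beyond the end of Pvt1 were touched by 21.6% and 35.5%, a ratio of 0.608 (0.577 to 0.642). The region upstream of the Myc window was touched by 16.8% and 21.3%, a ratio of 0.788 (0.739 to 0.841). The 13.0 kb between the left-out bins and the Pvt1 window did not differ beyond counting error, at 13.4% and 12.9% (ratio 1.03, 0.955 to 1.12).

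The other annotated genes of the window are non-coding or pseudogenes, and few were touched often. RefSeq lists 13 genes with a start within 1 Mb. For 5 of them, among them Gm22521, Gm18788 and Gm18154, no strand was at hand and the lower coordinate was taken as the start, and the strands of Myc, Pvt1 and Macroh2a3 come from GENCODE vM1. Of the 13 windows, 9 had at least 50 counts in the 2 states together. Of those, 2 were at least 1.5-fold higher in naive and 2 at least 1.5-fold higher in primed cells, where the same rule called 9.82% and 41.1% of the 10-kb bins. Besides Myc, the long non-coding RNA gene Gm30113, 943 kb downstream, was higher in naive cells, with 67 and 23 counts (ratio 2.47, 1.52 to 4.15). The small nucleolar RNA gene Gm22521, 782 kb downstream, was higher in primed cells, with 20 and 54 counts (0.314, 0.178 to 0.533), in a stretch where 35 of 53 bins were called in the same direction. Gm38563, a long non-coding RNA gene 854 kb upstream, had 31 and 45 counts (0.583, 0.357 to 0.943).

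The remaining 4 named genes had intervals that include 1. The pseudogene Macroh2a3, which lies inside Pvt1, had 167 naive and 154 primed counts (0.918, 0.733 to 1.15). The pseudogene Gm18788, 47.9 kb upstream and so on the far side of Myc, had 105 and 95 counts (0.936, 0.702 to 1.25). The pseudogene Gm18154 had 53 and 38, and the long non-coding RNA gene Gm41333 had 39 and 42.

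Among 10-kb bins the direction went with distance and with side. Of 112 bins with at least 50 counts, 11 (9.82%) were at least 1.5-fold higher in naive cells and 46 (41.1%) at least 1.5-fold higher in primed cells. The same rule at the 6 other deep viewpoints called 21.9% and 24.0% of 366 bins. Within 100 kb downstream all 9 bins had a ratio above 1, from 1.02 to 1.98 and a median of 1.5. Within 100 kb upstream 5 of 9 bins did, with a median of 1.01, and from 100 to 1000 kb upstream 5 of 26, with a median of 0.708. At 75 to 100 kb the sides went opposite ways, with a ratio of 0.749 (0.587 to 0.955) upstream and 1.76 (1.55 to 2.01) downstream. From 250 to 1000 kb downstream 35 of 53 bins were at least 1.5-fold higher in primed cells, with a median ratio of 0.536. With each pair counted once 12 and 26 of 89 bins were called, and without neighbouring fragments 9 and 29 of 81.

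**Figure D2:**
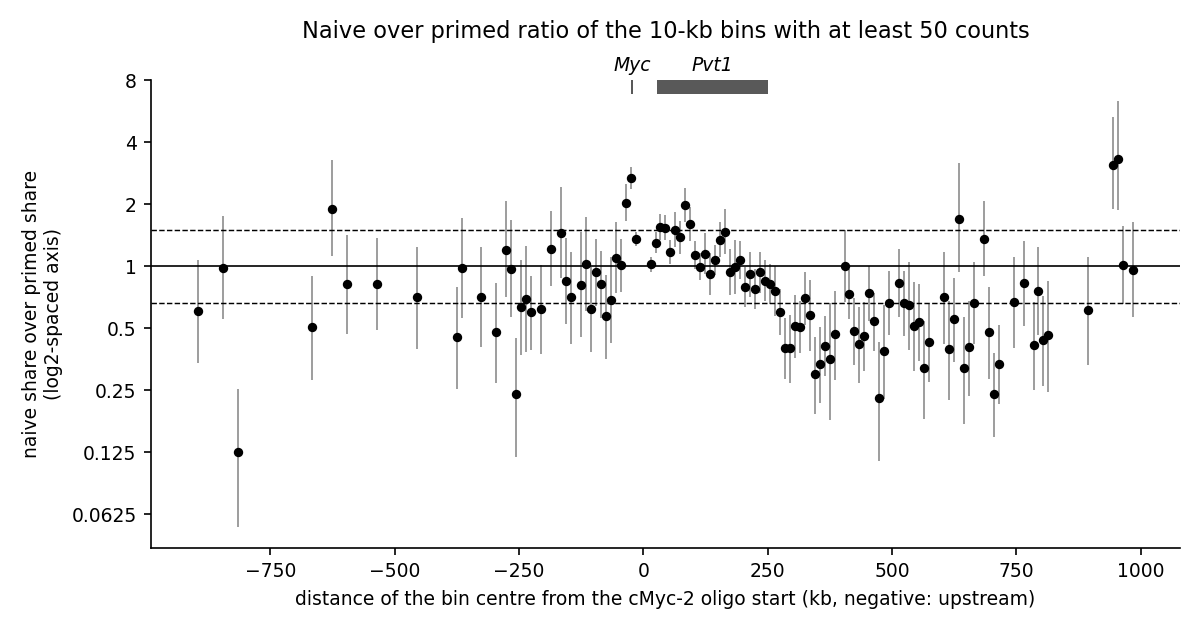
Naive over primed ratio of the share of counts touching each 10-kb bin with at least 50 counts (log2-spaced axis) against the distance of the bin centre from the cMyc-2 oligo start (kb). Bars are 95% intervals from counting error, dashed lines mark 1.5-fold in either direction and the bars on top mark Myc and Pvt1. The bin with Myc stands at 2.68, the bins within 100 kb downstream lie above 1 and most bins from 250 to 1000 kb downstream lie below it.

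The bins with the most extreme ratios lay far from the viewpoint and had few counts. The neighbouring bins chr15:62950001-62960000 and chr15:62960001-62970000, the first of which holds the start of Gm30113, had 77 naive against 21 primed and 59 against 15 counts. Their ratios were 3.11 (1.90 to 5.30) and 3.33 (1.87 to 6.32). These counts came from 61 and 45 different naive pairs, none seen more than 7 times. At the other end the bin chr15:61190001-61200000, 816 kb upstream, had 9 naive and 61 primed counts (0.125, 0.0546 to 0.253).

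Comparing both sides of the viewpoint at equal distance needs no denominator. At 20 to 30 kb, the distance of Myc on one side and of the Pvt1 start on the other, the naive table had 1057 counts upstream and 734 downstream. The primed table had 340 and 453. Downstream over upstream was thus 0.694 (0.631 to 0.764) in naive and 1.33 (1.15 to 1.54) in primed cells, and the order of the 2 sides was opposite in the 2 states. Primed over naive, this ratio was 1.92 (1.62 to 2.27).

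Farther out the downstream side was higher in both states. At 50 to 75 kb the naive table had 120 counts upstream and 981 downstream, a ratio of 8.18 (6.76 to 9.97), and the primed table had 114 and 645, a ratio of 5.66 (4.63 to 6.97). At 75 to 100 kb the ratios were 5.61 (4.65 to 6.81) and 2.38 (1.96 to 2.91). Here both tables favoured the downstream side, the naive one more strongly. At 200 to 500 kb both tables had nearly the same ratio, 3.87 and 3.93.

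The 2 reporters of a count lay mostly on the same side. Both were downstream in 61.3% of naive and 65.5% of primed counts, both upstream in 23.7% and 21.5%, and 1 on each side in 15.1% and 13.1%. The share with both upstream had a ratio of 1.10 (1.04 to 1.17), but this turned to 0.957 with each pair counted once and to 0.908 among reporters over 10 kb apart, and was 1.05 (0.958 to 1.15) without neighbouring fragments, so it has no settled direction.

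The odds of sharing a side, with 1 as the value if the 2 reporters fell independently, were 25.5 (22.9 to 28.4) in naive and 32.8 (29.0 to 37.2) in primed cells. A count with 1 reporter on each side spans the left-out bins, so leaving out close reporters removes same-side counts alone, lowers the odds by construction and makes 1 no longer the value of independence. The values that follow serve to compare the states. Without neighbouring fragments the odds were 5.32 (4.72 to 6.00) and 8.04 (7.02 to 9.20). Among reporters over 10 kb apart they were 1.06 (0.914 to 1.23) in naive and 2.15 (1.83 to 2.52) in primed cells. Of those distant pairs 41.3% in naive and 32.7% in primed cells had a reporter on each side of the viewpoint. The primed odds were higher in all 3 versions, by 1.29 (1.09 to 1.52), 1.51 (1.26 to 1.81) and 2.03 (1.63 to 2.52).

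Counts that joined the viewpoint, Myc and the Pvt1 start were rare. The naive table held 26 of them, from 24 different fragment pairs, and the primed table held 2. The shares were 0.240% (0.157 to 0.352%) and 0.0218% (0.00264 to 0.0787%), a ratio of 11.0 (2.76 to 95.7). The product of the shares of both windows corresponds to 70.5 naive and 15.5 primed counts. A count has only 2 reporters, and often both in 1 window, so this product is a scale and not the number that chance would give. Observed over product was 0.369 (0.241 to 0.541) in naive and 0.129 (0.0156 to 0.465) in primed cells. Values below 1 were the rule across the viewpoint, since all 64 naive and 54 primed pairs of 10-kb bins across it with a product of at least 5 counts lay below 1, with medians of 0.318 and 0.320. The 2 intervals overlap, but no interval was computed for the ratio of the 2 values. Whether they differ beyond the windows themselves was not tested.

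Where the other reporter of a Myc count lay was much alike in the 2 states, although the number of such counts was not. Both reporters were in the Myc window in 40.7% of the 1066 naive and 40.3% of the 345 primed counts. The partner lay in the rest of Pvt1 in 20.7% and 19.7%, beyond Pvt1 in 9.01% and 11.0%, and upstream of the Myc window in 7.60% and 6.38%. The ratios of 6 of the 7 partner segments had intervals that include 1, and the exception was the Pvt1 start window with 2.44% and 0.580% (4.21, 1.05 to 36.6).

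**Figure D3:**
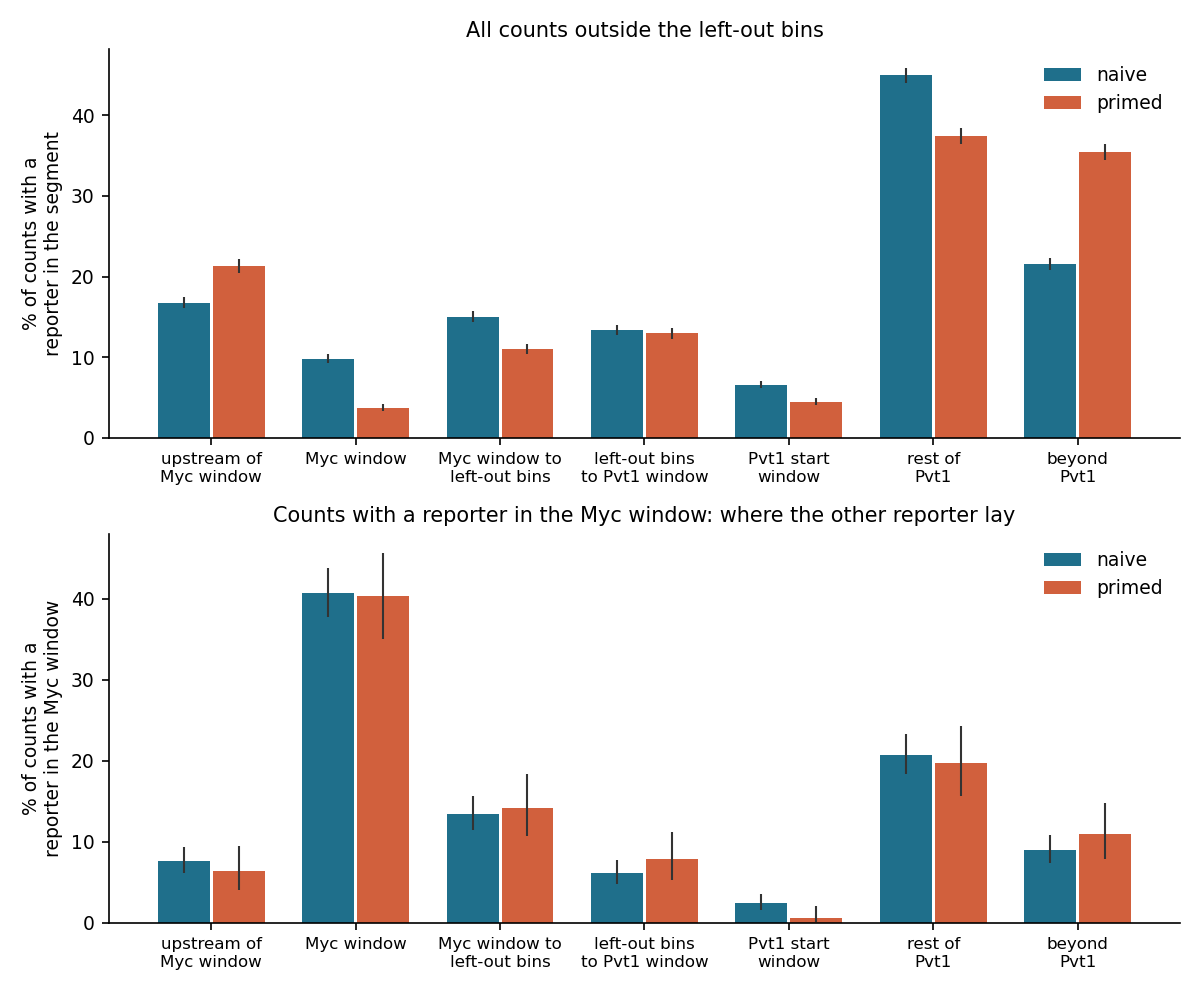
Upper panel, percent of counts with a reporter in each segment of the 2-Mb window. Lower panel, percent of the counts touching the Myc window whose other reporter lay in each segment. Bars give the pooled naive (blue) and primed (orange) tables with exact 95% binomial intervals. The Myc window stands at 9.84% and 3.76% above, while below its partners have much the same shares in both states.

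Partners of the Pvt1 start had 3 segments whose intervals exclude 1. Its other reporter lay in the Myc window in 3.63% of naive and 0.484% of primed counts (7.50, 1.88 to 65.2), which are the same 26 and 2 counts as above. It lay in the rest of Pvt1 in 27.9% of naive and 20.8% of primed counts (1.34, 1.04 to 1.75). It lay beyond Pvt1 in 6.42% and 13.3% (0.482, 0.319 to 0.727). Counts with both reporters beyond Pvt1 were 12.4% of all naive and 21.9% of all primed counts (0.567, 0.529 to 0.608), and those with both in the rest of Pvt1 were 29.4% and 23.6% (1.25, 1.18 to 1.32).

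Between pairs of 10-kb bins within 200 kb, for which the denominators were 7049 naive and 4228 primed counts, the called shares were near those of the other viewpoints. Of 81 bin pairs with at least 20 counts, 21 (25.9%) were at least 1.5-fold higher in naive and 18 (22.2%) at least 1.5-fold higher in primed cells. At the 6 other deep viewpoints 25.7% and 25.9% of 343 bin pairs were called. Without neighbouring fragments 18 and 12 of 69 bin pairs were. With bins of 20 kb 10 and 14 of 58 were, and with a minimum of 50 counts 3 and 6 of 37. The state with more called bin pairs thus depended on the setting. The highest ratio among pairs with at least 50 counts was that of the Myc bin with itself, with 452 and 133 counts (2.04, 1.68 to 2.49). The lowest joined the bins centred 14.2 and 54.2 kb downstream, with 23 and 31 counts (0.445, 0.248 to 0.788).

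**Figure D4:**
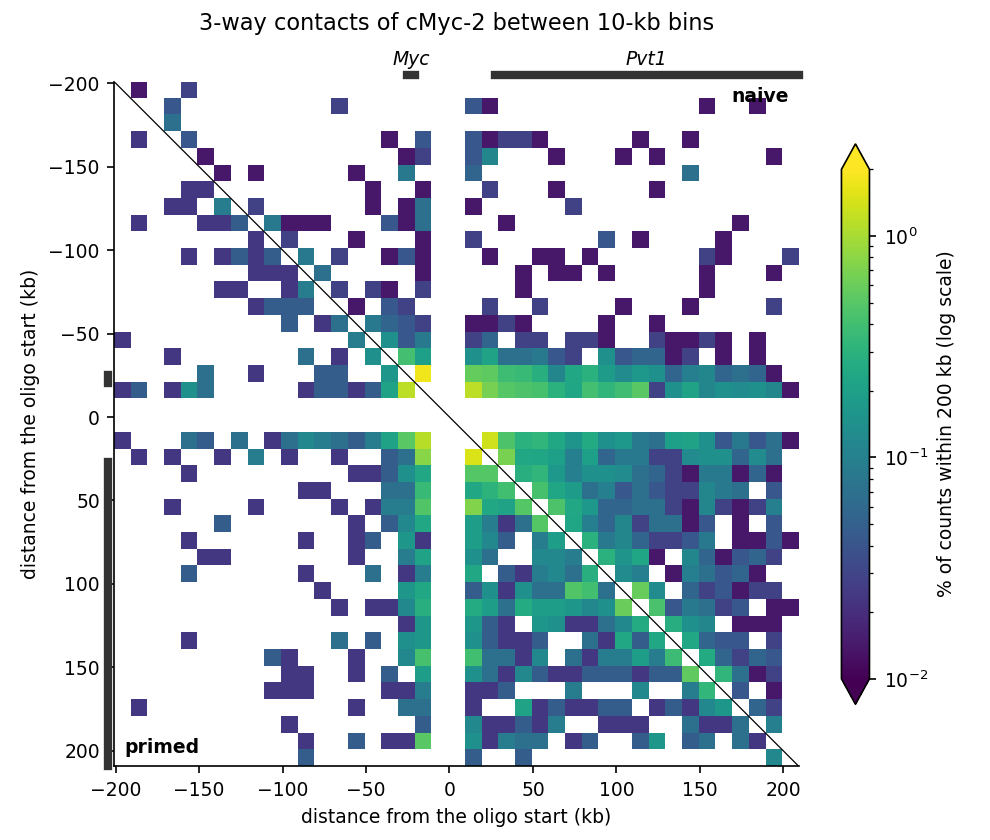
Percent of counts within 200 kb (colour, log scale) that join each pair of 10-kb bins, with the distance of both bins from the cMyc-2 oligo start on the axes (kb), the naive table above the diagonal and the primed table below it. White cells have 0 counts or are on the diagonal or in the left-out bins, and black bars mark Myc and Pvt1. The bins with and next to Myc form a band with bins of Pvt1, and few counts join bins upstream of Myc with anything else.

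The bin pairs across the viewpoint named here stood farthest above others of equal separation in 1 of the states. All of them held the bin between Myc and the left-out bins. In naive cells this bin was joined 36 times with the bin at 114 kb downstream and 28 times with that at 104 kb. It was joined 29 times with the bin at 84.2 kb and 30 times with that at 54.2 kb. The primed counts were 12, 10, 9 and 20, and all 4 ratios between the states had intervals that include 1. In primed cells it was joined 22 times, by 15 different fragment pairs, with the bin at 194 kb in the body of Pvt1, and 8 times in naive cells (0.218, 0.0840 to 0.509). Against the product of the shares of both bins these were 0.855 (0.536 to 1.29) and 0.226 (0.0974 to 0.444). The medians of this value over the bin pairs across the viewpoint are the 0.318 and 0.320 given above, and 0.855 is the highest primed value among them. This bin pair was named for its primed excess over pairs of equal separation. Its ratio between the states is therefore no independent support for a difference.

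Reporters of counts within 200 kb lay over 50 kb apart in 16.6% of naive and 15.1% of primed counts, a ratio of 1.09 (0.993 to 1.21) with an interval that includes 1. The ratio was above 1 in all 6 alternatives, and the interval lay above 1 in 3 of them. Those were 1.13 (1.02 to 1.26) with each pair counted once, 1.19 (1.04 to 1.36) with 1 more bin left out on each side and 1.07 (1.00 to 1.15) with no bin left out. Among counts with both reporters upstream the ratio was 0.708 (0.442 to 1.14), and among those with both downstream 1.01 (0.869 to 1.18). Counts within 200 kb with 1 reporter on each side were 12.9% in naive and 10.6% in primed cells (1.22, 1.09 to 1.37).

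The second capture near Myc gave a view from the other end. Seen from cMyc-2, the 5 kb on each side of the cMyc oligo were touched by 450 of 14501 naive and 185 of 11744 primed counts (3.10% and 1.58%, ratio 1.97, 1.66 to 2.35). Seen from cMyc, the same stretch around the cMyc-2 oligo was touched by 258 of 9230 and 81 of 5641 counts (2.80% and 1.44%, ratio 1.95, 1.51 to 2.53). The 2 ratios, from different oligo pools, differed by less than counting error. For these shares only the bin with the capturing oligo was left out. Counts that also touched the Pvt1 start numbered 11 naive and 1 primed from cMyc-2 (8.91, 1.29 to 383). From cMyc they numbered 10 and 0, where 0 counts allow up to 0.0532% by a floor of 3 counts over the table. The naive share was 2.04 times that floor, a value that leaves out the error of the 10 naive counts. The exact two-sided interval puts the lower limit of the ratio at 1.37.

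The 2 viewpoints differed on the Pvt1 side. Over bins shared by both, the Pvt1 start window had a naive over primed ratio of 1.53 (1.35 to 1.73) from cMyc-2 and of 2.44 (1.84 to 3.26) from cMyc. The first divided by the second was 0.628 (0.465 to 0.848), with each pair counted once 0.796 (0.551 to 1.15) and without neighbouring fragments 0.719 (0.493 to 1.05), where both intervals include 1. In the rest of Pvt1 the ratios were 1.27 and 1.87, and between the left-out bins and the Pvt1 window 1.09 and 2.38. Upstream of the bins left out around cMyc they were 0.724 and 0.696, and in the bin between the 2 viewpoints 1.43 and 1.57, in both places without a difference beyond counting error.

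**Figure D5:**
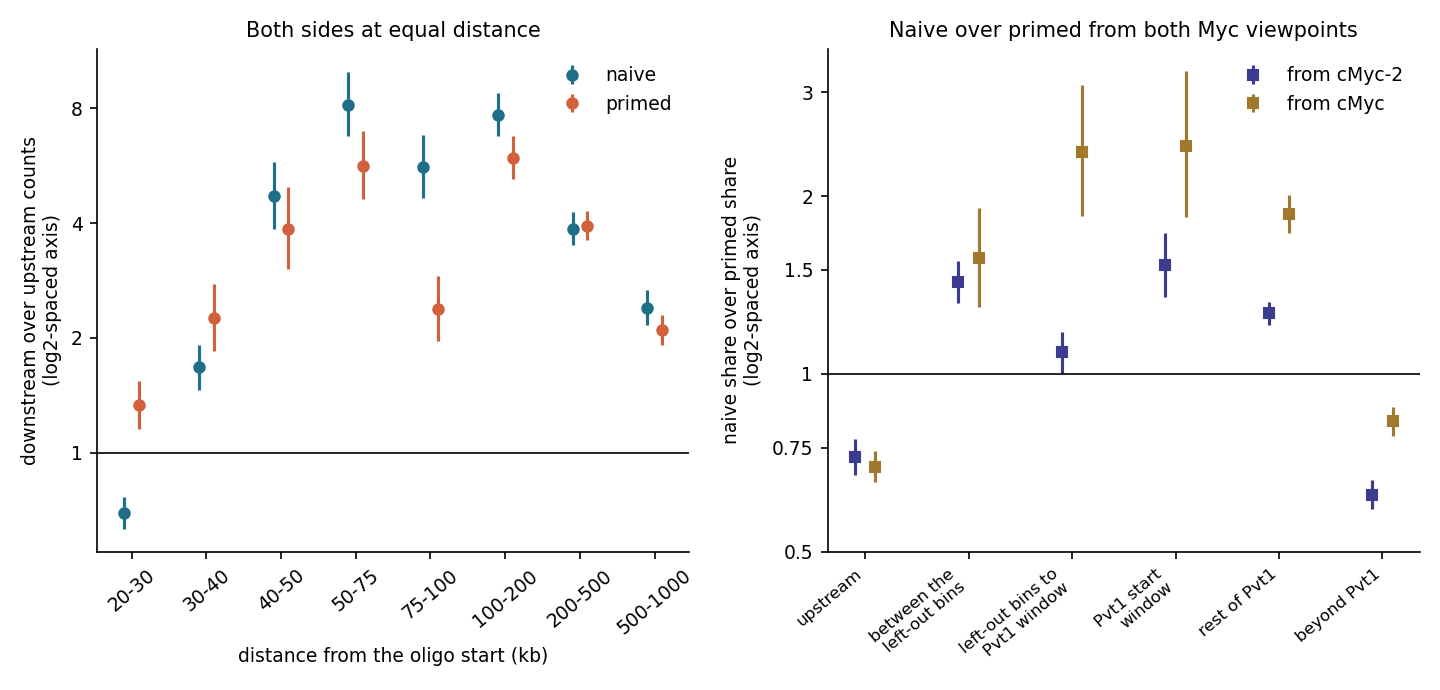
Left, counts downstream over counts upstream of the cMyc-2 oligo in bands of equal distance (kb), in naive (blue) and primed (orange) cells. Right, naive over primed ratio of the share of counts touching each segment, seen from cMyc-2 and from cMyc over the bins shared by both, and both axes are log2-spaced with 95% intervals from counting error. At 20 to 30 kb the naive table lies below 1 and the primed table above it, and on the right the 2 viewpoints part over the Pvt1 side.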

How the data were processed

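Tri-C libraries of naive and primed J1 cells (DpnII, 3 biological replicates per state and pool) were processed by the authors with CapCruncher in capture mode against mm10 and with their own scripts for reads with at least 2 reporters on the viewpoint's chromosome. The deposited tables give the count of each fragment pair, not normalized. For aligner, versions and duplicates, nothing is given in the sources used here. All 514 fragment starts inside RefSeq promoter sequences (GRCm38) had GATC directly before them when read as counted from 0, and 1 was added to every start. Counts held 17125 naive and 14410 primed local contacts. Shares have exact binomial (Clopper-Pearson) intervals. For a ratio of 2 shares the interval came from the exact split of its counts. Odds and ratios of 2 ratios have intervals from their log standard errors. Downstream over upstream ratios have them from the exact split of their counts. Values over a product have exact Poisson limits. One read with more than 2 reporters yields more than 1 pair, and whether PCR copies of a molecule were removed is not known. Intervals cover counting error only and treat counts as independent, so they may be too narrow. A 1.5-fold rule called bins with at least 50 and bin pairs with at least 20 counts.

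Named were all genes with at least 50 counts. Extreme bins, bin pairs and fragments were drawn from lists, of which only some members are given. The lists held the 5 highest and lowest bins and bin pairs, the bin pairs farthest above others of equal separation and the 5 most touched fragments. The 3 bins set against their neighbours in Pvt1 and single Myc fragments were chosen after their values were seen. Members and lists were chosen with earlier results of these data known. Ratio intervals were tested only on simulated data with independently drawn counts, which does not cover dependence between real counts. Oligo sequences come from the study's supplementary table. Gene positions come from RefSeq. Python 3.11.15 with numpy 2.4.6, pandas 2.3.3, scipy 1.17.1 and matplotlib 3.10.9 was used.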

Additional observations from a re-analysis of the deposited data

Results flagged for a closer look

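At 4 segments on the Pvt1 side the naive over primed ratio differed between the 2 Myc viewpoints beyond counting error, and these were marked because effects under the same contrast differed between captures. The ratio from cMyc-2 divided by that from cMyc was 0.457 (0.352 to 0.593) between the left-out bins and the Pvt1 window, 0.628 (0.465 to 0.848) at the Pvt1 start window, 0.678 (0.622 to 0.739) in the rest of Pvt1 and 0.752 (0.695 to 0.813) beyond Pvt1. At the Pvt1 start window the interval included 1 with each pair counted once (0.796, 0.551 to 1.15) and without neighbouring fragments (0.719, 0.493 to 1.05), and no alternatives were run for the other 3 segments. The 2 viewpoints were captured in different oligo pools, and pool and viewpoint cannot be told apart.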

How the results depend on the processing

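No paired analysis was possible because each state has 1 table without replicate columns, and no replicate could be left out. Of 78 alternative values 46 stayed within the counting interval of the value in the text (counts of bins within 1.5 times it), 29 moved and 3 turned direction; settings that leave out neighbouring fragments or reporters up to 10 kb apart were chosen after seeing the data. The turned values were all of the share with both reporters upstream: 0.957 with each distinct pair counted once, 0.989 with 1 more bin left out on each side and 0.908 with reporters over 10 kb apart; with no bin left out it was 1.19. The local share ratio was 1.16 within 500 kb and 1.00 within 2 Mb. The Myc ratio was 3.07 with 1 more bin left out, 3.07 and 2.11 with windows of 2.5 and 10 kb on each side, and 1.88 among counts within 200 kb, above 1 in all 10 alternatives. The Pvt1 start ratio was 1.76 with each pair counted once and 1.17 among counts within 200 kb. Same-side odds in naive cells were 8.71 with each pair counted once, 12.3 with only the bin of the oligo left out, 39.1 with 1 more bin left out, 38.9 within 200 kb, 5.32 without neighbouring fragments and 1.06 over 10 kb apart. In primed cells, in the same order, they were 15.3, 13.9, 59.9, 57.2, 8.04 and 2.15. Myc and the Pvt1 start together over the product of their shares were 0.624 in naive cells with each pair counted once and 0.609 over 10 kb apart, and in primed cells 0 (0 to 1.04) with windows of 2.5 kb and 0.479 with windows of 10 kb. Bins past 1.5-fold numbered 26 of 59 with a minimum of 100 counts, 7 higher in naive and 19 in primed cells, against 57 of 112. Bin pairs numbered 24 of 58 with bins of 20 kb, 10 higher in naive and 14 in primed cells. With each pair counted once they numbered 23 of 66 (12 and 11), and with a minimum of 50 counts 9 of 37 (3 and 6). The value in the text was 39 of 81 (21 and 18), and fewer features were tested in each of these alternatives. The causes of the shifts were not tested. The 2 primed counts that join both gene starts leave their ratio with a wide interval.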
